A study of Homo sapiens with 12 samples.

Results

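The urea cycle turns ammonia into urea, and 9 genes of this cycle and of ammonia handling were described here across 4 culture conditions of HepG2 cells. The genes were taken by symbol from a list of 10 names (CPS1, OTC, ASS1, ASL, ARG1, NAGS, GLUD1, GLUL, SLC25A13 and SLC25A15), and 9 were found among the 16389 genes of the count table. OTC was not analysed here. HepG2, an established cell line, was derived from a human liver cancer. Cells were kept for 48 h in low glucose medium (LG, 5.5 mM) or high glucose medium (HG, 20 mM). Further cultures of each kind were then given 1 mM valproic acid (VPA) for another 12 h, which gave LGV and HGV. Each of the 4 groups had 3 libraries of poly(A) selected RNA, 12 in all, and every group came from the same cell line, so the groups say nothing of variation between donors. The labels call the libraries replicates and do not say how they were separated, so p values measure the spread between these libraries, which may be technical. The sources do not say whether the untreated cultures were stopped at 48 h or grown on alongside the treated ones, so VPA and culture time cannot be told apart in the comparisons of treated with untreated cells.

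In the liver, ammonia enters the cycle inside mitochondria. NAGS makes N-acetylglutamate, the obligate activator of CPS1, which joins ammonia and bicarbonate into carbamoyl phosphate, and OTC passes this to ornithine that SLC25A15 brings in from the cytosol. ASS1 then joins citrulline with aspartate, which SLC25A13 (citrin) exports from mitochondria, ASL releases arginine, and ARG1 splits arginine into urea and ornithine. GLUD1 frees or binds ammonia at glutamate, and GLUL binds ammonia to glutamate to make glutamine, the route used by the hepatocytes around the central vein. VPA is an anticonvulsant and an inhibitor of histone deacetylases, and raised blood ammonia is a known effect of it in patients. HepG2 cells are known to make little urea.

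Between 29798442 and 45572694 reads per library were counted on genes. Levels are given as CPM, counts scaled to a common library size with TMM factors, which correct for differences in RNA composition and ran from 0.879 to 1.095. A count of 3 reads, the smallest taken as different from none, stood for 0.0713 to 0.112 CPM, which covers counting error only. All 8 hepatocyte markers looked for, such as ALB and AFP, were measured, with a mean for ALB between 19380 CPM in LGV and 26900 CPM in HG. Of 9 markers of blood, endothelial, mesenchymal and biliary cells, 4 were measured (VWF, COL1A1, ACTA2 and KRT19) and PTPRC, CD68, PECAM1, COL1A2 and KRT7 were not analysed here. Their summed level was 109.6 to 122.8 CPM in LG, 103 to 136.5 in HG, 131.7 to 190.8 in LGV and 188.4 to 241.5 in HGV. Most of each sum was KRT19, with means of 96.4 CPM in LG, 77.7 in HG, 156 in LGV and 180 in HGV.

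The levels of the 9 genes spanned a wide range. Per kilobase of exon, with all annotated exons of a gene merged, the mean over the 12 libraries was highest for GLUL with 48.3 CPM per kilobase, followed by ASS1 with 38.4, GLUD1 with 31.7 and SLC25A13 with 29.1. NAGS with 6.36, ASL with 6.21, SLC25A15 with 4.96 and CPS1 with 4.90 CPM per kilobase formed a lower tier, and ARG1 was lowest with 0.343. The order depends on the length used. With the length of the canonical transcript, GLUD1 came first with 137 CPM per kilobase, ahead of GLUL with 80.7 and ASS1 with 75.6. Sequence shared with other places in the genome also bears on these levels. Of the 50-base stretches of the canonical transcript, 29.4% in GLUD1, 14.6% in ASS1, 9.41% in SLC25A15 and 4.14% in GLUL occurred exactly at another place in GRCh37, such as GLUD2 and the pseudogenes of ASS1. For SLC25A15 the genes hit most were PRPSAP2, CNTNAP2, KANSL1 and EXTL3, so its shared stretches need not come from copies of the gene. For CPS1, ASL, ARG1, NAGS and SLC25A13 the share was 0. Reads from such stretches may have been lost or counted at another place, and their part in the values below was not tested.

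**Figure D1:**
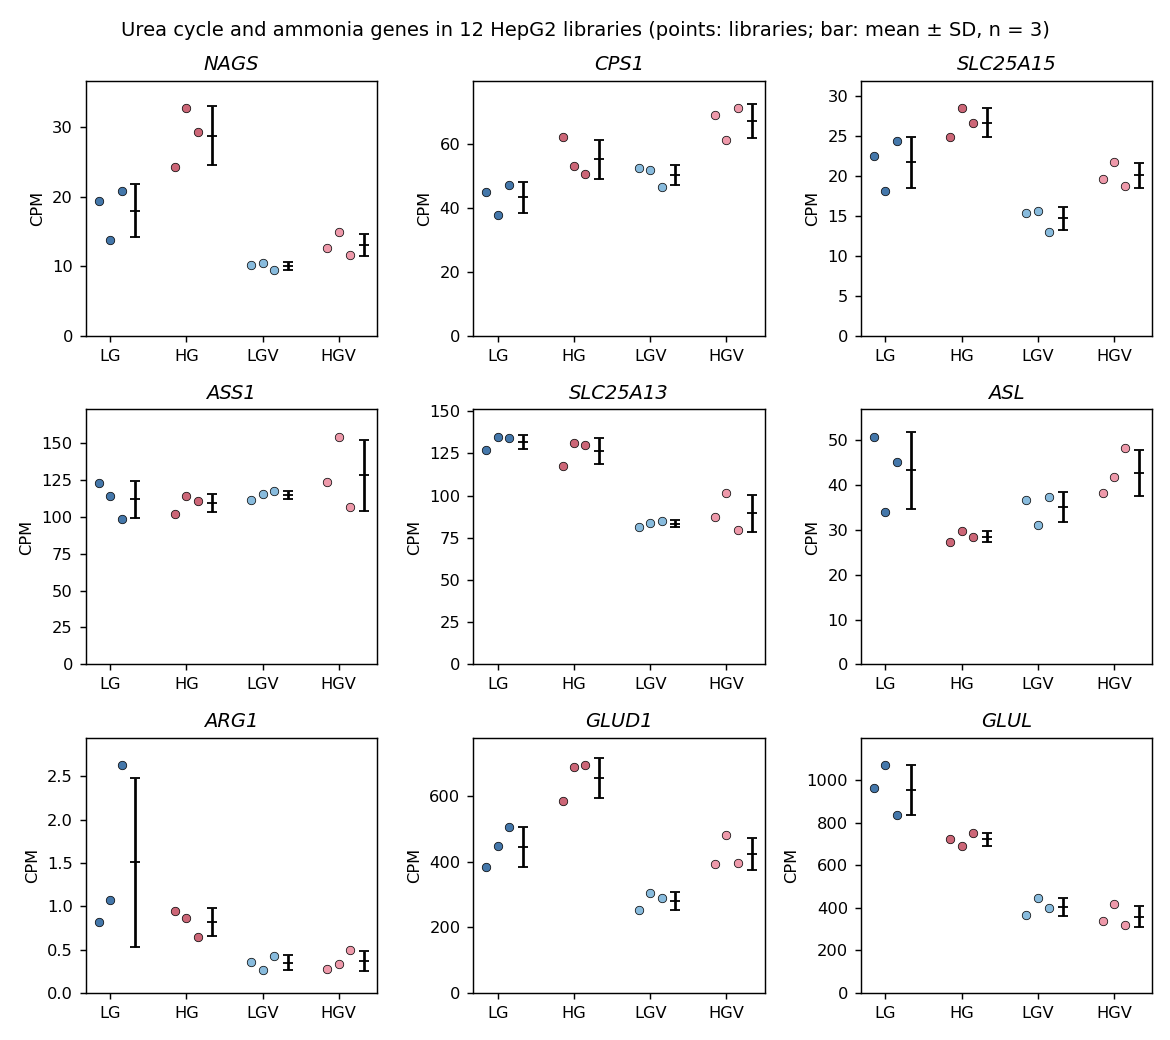
CPM (vertical axes, from 0) of the 9 genes in the libraries of LG, HG, LGV and HGV (horizontal axes). Points are libraries and bars give the mean ± SD (n = 3). GLUL fell from 834 to 1070 CPM in LG to 365 to 446 CPM in LGV, whereas ASS1 overlapped between all 4 groups.

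VPA was accompanied by lower expression of most of these genes, in both media. In LGV against LG, 6 of the 9 genes fell (ARG1, GLUL, NAGS, GLUD1, SLC25A13 and SLC25A15), none rose, and CPS1, ASS1 and ASL did not pass the test. In HGV against HG, these 6 genes fell as well, ASL rose, and CPS1 and ASS1 did not pass. The test was edgeR's quasi-likelihood F test over all genes, and a gene is called changed, higher or lower at a false discovery rate (FDR) of 0.05 or less. Of all genes tested, 41.6% were called in LGV against LG (19.9% lower), and 46.1% in HGV against HG (25.8% higher and 20.2% lower). The median log2 fold change was -0.65 for the 9 genes and -0.0057 for all tested genes in low glucose. It was -0.50 and 0.0249 in high glucose. Of the hepatocyte markers, 5 of 8 fell in LGV against LG, and their summed level was 39790 to 40750 CPM in LGV and 51550 to 58290 CPM in LG. In HGV against HG, 1 of 8 fell (FGB) and 1 rose (TTR), with sums of 46690 to 61330 CPM in HGV and 52590 to 60470 CPM in HG. Of the other cell markers, COL1A1 and KRT19 rose and ACTA2 fell with VPA in each medium. COL1A1 was near the floor in LG, with 0.226 ± 0.131 CPM (SD, n = 3). The part of these markers in the result was not tested. In bulk RNA, fewer cells of a type and less RNA per cell cannot be told apart.

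High glucose was accompanied by higher NAGS and GLUD1 and by lower ASL and GLUL in untreated cells. These were the 4 of 9 genes called in HG against LG, 2 in each direction, where 24.7% of all tested genes were called (12% higher and 12.7% lower). CPS1 narrowly missed the threshold with an FDR of 0.05002. In the presence of VPA, HGV against LGV, CPS1, GLUD1 and SLC25A15 rose and no member fell, 3 of 9 beside 40.7% of all tested genes (21.2% higher and 19.5% lower), so the share of members called was below the background. GLUD1 was the only member called in the same direction at both glucose comparisons. This reflects the threshold in part, since 3 other members had positive log2 fold changes without and with VPA. These were 0.37 and 0.40 for CPS1, 0.70 and 0.37 for NAGS, and 0.32 and 0.43 for SLC25A15. The count in untreated cells rests on single libraries: it was 2 without HG replicate 3 or without LG replicate 1, and 6 without LG replicate 3, when CPS1 and SLC25A15 passed too. With VPA it was 1 without LGV replicate 3.

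**Figure D2:**
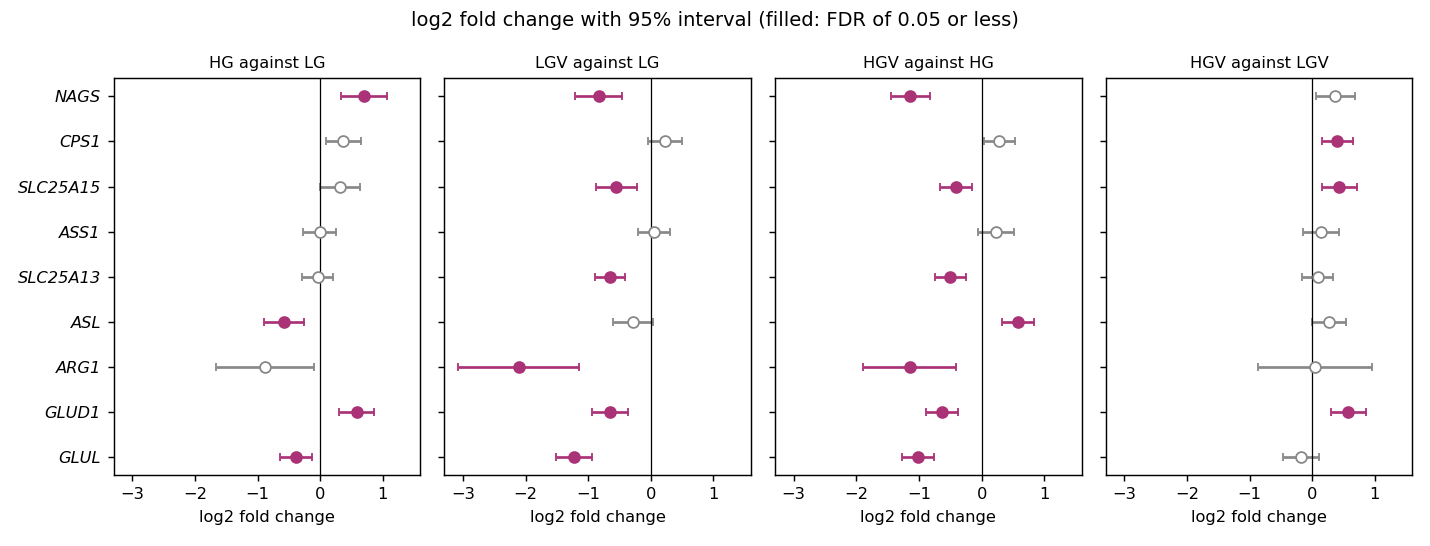
The log2 fold change (horizontal axes) of each gene in the comparisons of 3 libraries with 3, with bars for 95% intervals from edgeR. Filled points have an FDR of 0.05 or less. The 6 filled points in LGV against LG all lie below 0, and those of the same genes in HGV against HG do too.

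NAGS (ENSG00000161653), on chromosome 17 of GRCh37 from 42081990 to 42086436, had 19.4, 13.8 and 20.9 CPM in the LG libraries and 24.3, 32.8 and 29.4 CPM in HG. It had 10.2, 10.5 and 9.42 CPM in LGV and 12.7, 14.9 and 11.7 CPM in HGV. HG stood above LG and each VPA group stood below its untreated group, without overlap. Groups did not overlap, in either direction, in 41.2% of all tested genes in HG against LG, 50.5% in LGV against LG and 54.6% in HGV against HG. The log2 fold change was 0.70 in HG against LG (standard error 0.17, edgeR FDR 0.00671). With VPA it was -0.84 in low glucose (standard error 0.17, edgeR FDR 0.0014) and -1.14 in high glucose (standard error 0.14, edgeR FDR 3.82e-05). These 3 calls were kept with each library left out. HGV stood above LGV without overlap, as did either group over the other for 51.4% of all tested genes, with a log2 fold change of 0.37 and an edgeR FDR of 0.0575. This FDR was 0.0255 with upper quartile factors, 0.033 with library size only and 0.0494 without HGV replicate 3.

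CPS1 (ENSG00000021826), which takes up free ammonia, lies on chromosome 2 from 211342406 to 211543831. Its differences with VPA did not pass the test. The libraries had 45.0, 37.83 and 47.2 CPM in LG, 62.1, 53.1 and 50.5 in HG, 52.5, 51.7 and 46.7 in LGV, and 69.0, 61.1 and 71.1 in HGV. Neighbouring groups in the order LG, LGV, HG and HGV overlapped, while HGV stood above LGV and HG above LG. The rise in HGV against LGV had a log2 fold change of 0.40 (95% interval 0.15 to 0.65, edgeR FDR 0.0126), and its FDR was 0.0957 without LGV replicate 3 and 0.0534 without HGV replicate 3. In HG against LG the value was 0.37 (95% interval 0.09 to 0.65), called in 7 of 16 alternatives, without LG replicate 3 (FDR 0.0231) among them. With VPA the difference was 0.23 in low glucose (95% interval -0.04 to 0.49, edgeR FDR 0.161) and 0.28 in high glucose (95% interval 0.03 to 0.53, edgeR FDR 0.0622). The latter passed in 5 of 16 alternatives, with an FDR of 0.0154 with library size only, 0.0254 with upper quartile factors, 0.0375 with the replicate block, 0.0304 without HG replicate 1 and 0.0201 without HGV replicate 2, and its highest FDR was 0.254, without HG replicate 3. In low glucose it passed with library size only (FDR 0.0392).

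SLC25A15 (ENSG00000102743), the mitochondrial ornithine carrier, on chromosome 13 from 41363548 to 41386596, had the same order of group means as NAGS, with other calls. It had 22.5, 18.1 and 24.4 CPM in LG, 24.9, 28.4 and 26.6 in HG, 15.4, 15.6 and 13.02 in LGV, and 19.7, 21.8 and 18.8 in HGV. LGV was lowest and HG highest, each apart from its neighbour, while HGV and LG overlapped. The difference in HG against LG did not pass the test, with a log2 fold change of 0.32 (95% interval 0.0034 to 0.64, edgeR FDR 0.128). The fall with VPA had a log2 fold change of -0.55 in low glucose (standard error 0.15, edgeR FDR 0.0102) and -0.41 in high glucose (standard error 0.11, edgeR FDR 0.0112). HGV was above LGV by 0.43 on the log2 scale, with a standard error of 0.14 and an edgeR FDR of 0.0165. With library size in place of TMM factors, the FDR of the falls was 0.0888 and 0.0508. Without LGV replicate 3 it was 0.079 for the fall in low glucose and 0.121 for the rise. Its exons hold MIR621 on the same strand, with 96 bases, 2.29% of the merged exons.

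ASS1 (ENSG00000130707), on chromosome 9 from 133320348 to 133376661, was called in no comparison. It had 122.5, 114 and 98.3 CPM in LG, 102, 114 and 111 in HG, 111, 115 and 117 in LGV, and 123, 154 and 106 in HGV. The 4 groups overlapped throughout. For ASS1 the log2 fold change had 95% intervals of -0.27 to 0.25 in HG against LG, -0.20 to 0.30 in LGV against LG and -0.05 to 0.51 in HGV against HG. HGV replicate 2, with 154 CPM, was the highest of the 12. This comparison passed with library size only (FDR 0.0365) and without HGV replicate 3 (FDR 0.0474).

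ASL (ENSG00000126522), the next enzyme, on chromosome 7 from 65540787 to 65559684, was the only member that rose with VPA. It had 50.8, 34.0 and 45.1 CPM in LG and 27.4, 29.76 and 28.5 in HG. It had 36.7, 31.2 and 37.4 CPM in LGV and 38.2, 41.8 and 48.3 in HGV. All HG libraries were below those of the other 3 groups. The log2 fold change was -0.58 in HG against LG (standard error 0.15, edgeR FDR 0.00971) and 0.58 in HGV against HG (standard error 0.12, edgeR FDR 0.00131). In LGV against LG it was -0.29 (95% interval -0.61 to 0.03, edgeR FDR 0.135), and without LG replicate 2 it passed with an FDR of 0.011. The fall with glucose lost its call without HG replicate 3 (FDR 0.061) or LG replicate 1 (FDR 0.0929), whereas the rise with VPA in HG kept it with each library left out. An unnamed protein-coding gene of the annotation shares 563 exon bases with ASL on the same strand, 9.34% of its merged exons.

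SLC25A13 (ENSG00000004864), the aspartate and glutamate carrier, on chromosome 7 from 95749532 to 95951459, had lower levels in every treated library. It had 127, 135 and 134 CPM in LG and 118, 131 and 130 in HG. With VPA it had 81.2, 83.6 and 85.2 CPM in LGV and 87.2, 101 and 79.9 in HGV. The media overlapped within each treatment, and HGV spread more widely than the other groups. The fall was 0.65 on the log2 scale in low glucose, to 0.636 of the LG level (edgeR FDR 0.000233), and in high glucose the level was 0.708 of that in HG (edgeR FDR 0.0028). The glucose differences were -0.04 (95% interval -0.29 to 0.21) without VPA and 0.08 (95% interval -0.17 to 0.34) with it.

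ARG1 (ENSG00000118520), which releases urea, on chromosome 6 from 131791972 to 131905472, had few reads. It had 22, 43 and 103 reads in LG, 30, 29 and 23 in HG, 12, 8 and 16 in LGV, and 9, 14 and 17 in HGV. In CPM these were 0.823, 1.07 and 2.63 in LG, 0.951, 0.867 and 0.644 in HG, 0.36, 0.26 and 0.427 in LGV, and 0.276, 0.333 and 0.5 in HGV. The VPA libraries were below all untreated libraries in each medium, and LG replicate 3 stood apart at the top. With VPA the log2 fold change was -2.11 in low glucose (standard error 0.45, edgeR FDR 0.00173) and -1.15 in high glucose (standard error 0.34, edgeR FDR 0.0158). Without LG replicate 3 the first was -1.41, still called, and without HGV replicate 1 the second had an FDR of 0.0593. The difference of -0.89 in HG against LG (edgeR FDR 0.0886) was -0.21 without LG replicate 3.

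GLUD1 (ENSG00000148672), glutamate dehydrogenase, on chromosome 10 from 88809959 to 88854600, was changed in all 4 comparisons. It had 383, 449 and 507 CPM in LG, 586, 690.4 and 695 in HG, 252, 305 and 288 in LGV, and 395, 482 and 396 in HGV. HG was highest, LGV lowest, and LG and HGV overlapped between them. The level in HG was 1.497 times that in LG (log2 fold change 0.58, standard error 0.13, edgeR FDR 0.00413), and that in HGV was 1.49 times that in LGV (edgeR FDR 0.00234). With VPA the level was 0.636 of the untreated one in low glucose (edgeR FDR 0.00142) and 0.645 in high glucose (edgeR FDR 0.000864). All 4 calls remained in every alternative and with each library left out. GLUD2, its close copy and also a glutamate dehydrogenase gene, rose in HG against LG with a log2 fold change of 0.59 (edgeR FDR 0.0469), at 4.64 ± 0.704 CPM (SD, n = 3) in LG and 6.83 ± 1.47 CPM (SD, n = 3) in HG, and reads of the copies may not be separable. The exons of GLUD1 overlap those of SHLD2 on the other strand by 464 bases, and the library kit keeps strand, but whether the counting used it is not stated.

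GLUL (ENSG00000135821), glutamine synthetase, on chromosome 1 from 182347233 to 182361341, had the smallest FDR of the members with VPA. It had 962, 1070 and 834 CPM in LG and 722, 690.2 and 753 in HG. With VPA it had 365, 446 and 399 CPM in LGV and 340, 416 and 322 in HGV. All treated libraries were below all untreated ones, and HG was below LG without overlap. With VPA its log2 fold change was -1.23 in low glucose (standard error 0.14, edgeR FDR 5.86e-06) and -1.01 in high glucose (standard error 0.12, edgeR FDR 2.05e-05), to 0.426 and 0.497 of the untreated level. The lower level in HG against LG (log2 fold change -0.38, standard error 0.12, edgeR FDR 0.0305) was less secure. It lost its call with library size only (FDR 0.057), upper quartile factors (0.076) and the replicate block (0.0661), and with 5 of the 6 libraries left out in turn, where the FDR reached 0.14.

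Whether the response to VPA depended on glucose was tested as the interaction over the 12 libraries. None of the 9 genes passed with edgeR's quasi-likelihood test, beside 0.0427% of all tested genes (0.0244% higher and 0.0183% lower). ASL was the 1 member with an unadjusted p under 0.05. Its response was higher in high glucose by 0.88 on the log2 scale (95% interval 0.47 to 1.30, edgeR FDR 0.0753). ASL was also the 1 member called by edgeR's likelihood ratio test (FDR 0.00894) and by the Wald test of DESeq2 (FDR 0.0169). Without LG replicate 2 the quasi-likelihood FDR was 0.0157, and over all libraries left out in turn it reached 0.286. The interval for the interaction was -0.77 to 0.19 for NAGS, -0.35 to 0.42 for GLUD1 and -0.14 to 0.61 for GLUL. For ARG1, with few reads, it was -0.30 to 2.25.

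**Figure D3:**
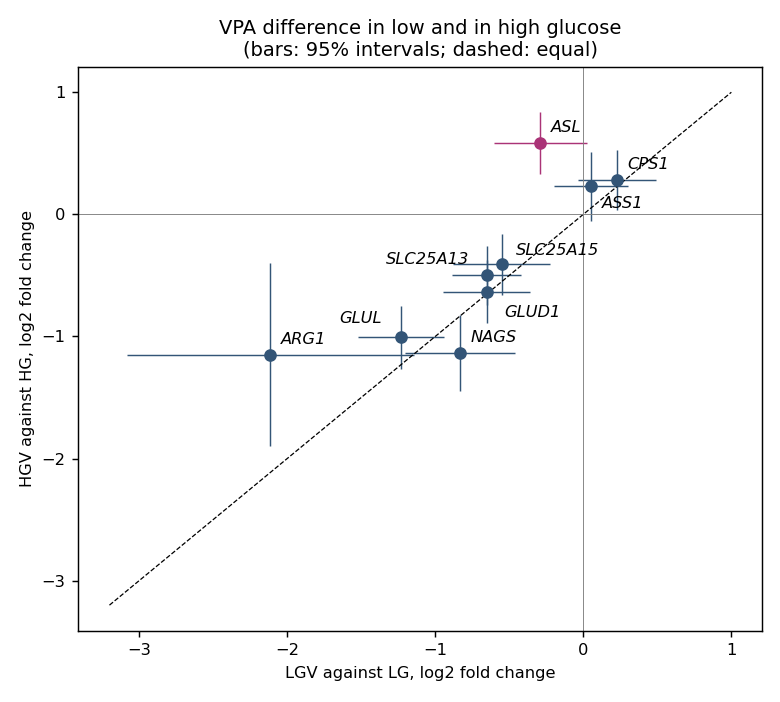
The log2 fold change with VPA in low glucose (horizontal axis) and in high glucose (vertical axis) for the 9 genes, which come from separate libraries, with 95% intervals and a dashed line where both are equal. The 6 genes called lower in both media lie at the lower left, and ASL lies at -0.29 and 0.58.

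Ratios of reads of a pair of genes within a library do not depend on the scaling between libraries. The pairs were chosen after the values were seen and are given with no test. The reads of GLUL were 2.51, 2.39 and 1.65 times those of GLUD1 in LG and 1.45, 1.46 and 1.39 times in LGV. They were 1.23, 1.00 and 1.08 times in HG and 0.861, 0.862 and 0.812 times in HGV. This ratio of reads of GLUL to reads of GLUD1 separated all 4 groups without overlap, in the order LG, LGV, HG and HGV. The reads of CPS1 were 2.44 ± 0.265 times those of its activator's gene NAGS in LG and 1.96 ± 0.514 in HG, against 5.01 ± 0.11 in LGV and 5.21 ± 1.02 in HGV (mean ± SD, n = 3). The lowest treated library, HGV replicate 2 with 4.10, was above the highest untreated library, LG replicate 2 with 2.74. The ratio of ASS1 to ASL was highest in HG with 3.82 ± 0.0867 (SD, n = 3), and the other groups overlapped.

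**Figure D4:**
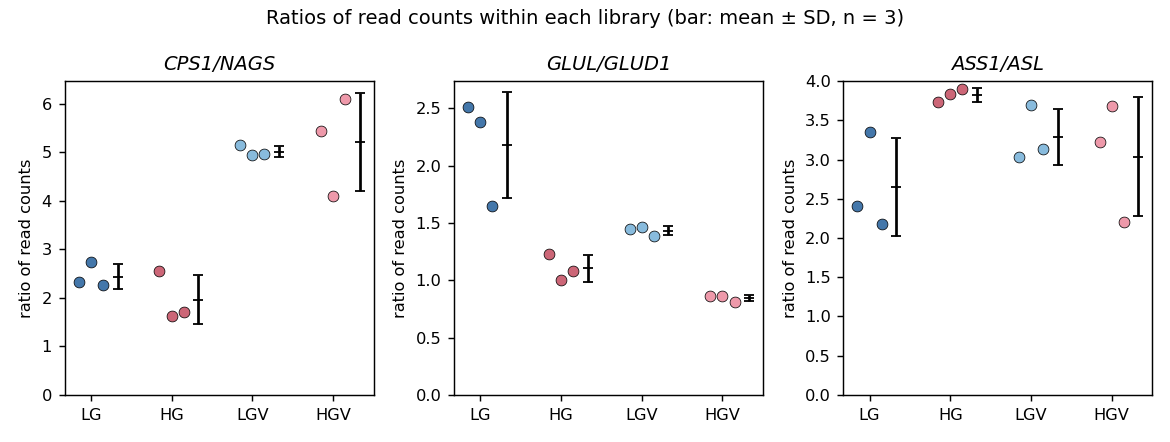
Ratios of read counts within each library (vertical axes, from 0) for the pairs CPS1/NAGS, GLUL/GLUD1 and ASS1/ASL in LG, HG, LGV and HGV. Points are libraries and bars give the mean ± SD (n = 3). The ratio of CPS1 to NAGS was 4.10 to 6.09 in HGV and 1.62 to 2.56 in HG.

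Over the 12 libraries, NAGS, GLUD1 and SLC25A15 varied together, as a description of libraries that share their groups. Pearson's r of log2 CPM was 0.948 for NAGS with SLC25A15, 0.915 for NAGS with GLUD1 and 0.919 for GLUD1 with SLC25A15. GLUL went most closely with SLC25A13 (r = 0.938), and CPS1 with GLUL had the lowest value (r = -0.696). The regions around the starts of NAGS, GLUD1 and SLC25A15 are shown since these genes moved together, and those of GLUL and ARG1 since these had the lowest fold changes with VPA in low glucose. Each runs 5′ to 3′ on the strand of the gene, from 250 bases before to 50 after the start that RefSeq gives on GRCh38.p14, a build other than that of the gene positions above. Capitals mark exact matches on either strand to short motifs known from promoters, none of which overlap. The GC box was searched as GGGCGG. The CCAAT box was searched by the letters of its name. The TATA box was searched as TATAAA, and the E-box as CACGTG. The windows are NAGS at chr17:44004372-44004671, GLUD1 at chr10:87094794-87095093, SLC25A15 at chr13:40789361-40789660, GLUL at chr1:182391741-182392040 and ARG1 at chr6:131572976-131573275.
NAGS: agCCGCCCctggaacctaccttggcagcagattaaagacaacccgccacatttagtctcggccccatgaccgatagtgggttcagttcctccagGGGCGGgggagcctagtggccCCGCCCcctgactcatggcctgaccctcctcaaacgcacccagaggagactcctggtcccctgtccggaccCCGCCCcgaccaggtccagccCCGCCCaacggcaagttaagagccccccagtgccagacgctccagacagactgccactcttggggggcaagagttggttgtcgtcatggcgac
GLUD1: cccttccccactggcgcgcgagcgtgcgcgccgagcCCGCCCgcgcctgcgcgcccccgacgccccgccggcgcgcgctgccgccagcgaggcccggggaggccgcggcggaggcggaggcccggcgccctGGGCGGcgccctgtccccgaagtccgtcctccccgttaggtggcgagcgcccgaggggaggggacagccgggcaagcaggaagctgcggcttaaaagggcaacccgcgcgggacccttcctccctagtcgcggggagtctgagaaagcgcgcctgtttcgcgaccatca
SLC25A15: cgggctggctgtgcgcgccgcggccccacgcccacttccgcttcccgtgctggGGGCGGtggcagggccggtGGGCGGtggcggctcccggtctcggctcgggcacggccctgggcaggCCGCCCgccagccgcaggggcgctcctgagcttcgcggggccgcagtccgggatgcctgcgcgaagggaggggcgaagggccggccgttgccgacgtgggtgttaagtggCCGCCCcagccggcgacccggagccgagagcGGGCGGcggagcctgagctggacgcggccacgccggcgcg
GLUL: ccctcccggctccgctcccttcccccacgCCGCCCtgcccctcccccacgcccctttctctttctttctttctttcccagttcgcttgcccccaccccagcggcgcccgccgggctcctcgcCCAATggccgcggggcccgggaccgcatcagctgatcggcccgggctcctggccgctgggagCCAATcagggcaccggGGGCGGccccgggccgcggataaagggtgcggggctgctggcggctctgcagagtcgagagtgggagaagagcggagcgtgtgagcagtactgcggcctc
ARG1: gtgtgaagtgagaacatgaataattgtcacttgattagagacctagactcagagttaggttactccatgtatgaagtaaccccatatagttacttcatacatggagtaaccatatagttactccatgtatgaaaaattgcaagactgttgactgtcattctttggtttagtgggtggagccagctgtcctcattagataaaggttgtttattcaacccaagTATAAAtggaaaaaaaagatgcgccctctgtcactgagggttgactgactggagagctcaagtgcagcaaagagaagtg
NAGS held 5 GC boxes, SLC25A15 5 and GLUD1 2, and none of the other motifs. GLUL held 2 GC boxes and 2 CCAAT boxes, and ARG1 held a TATA box that begins 29 bases before the start. Of 35116 RefSeq windows of this length, 45.0% held a GC box, 34.6% a CCAAT box, 11.5% a TATA box and 7.26% this E-box. The observed over expected number of CpG was 1.05 in GLUD1, 0.949 in SLC25A15, 0.743 in GLUL, 0.496 in NAGS and 0.0857 in ARG1, with a median of 0.579 over all windows. A GC box was found in 4 of the 5 windows shown. RefSeq gives GLUL a further start that is not shown. A match is a description of the letters and not a site.

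Genes beside the cycle were described from lists made by symbol. Of 88 listed genes in 6 lists, 80 were measured, and their counts are read beside the share of all tested genes called, 24.7% in HG against LG, 41.6% in LGV against LG, 46.1% in HGV against HG and 40.7% in HGV against LGV. For glutamine, glutamate and ammonia, 3 of 15 genes rose and 7 fell in LGV against LG, and 4 rose and 7 fell in HGV against HG, beside 41.6% and 46.1% of all tested genes. The median log2 fold change of the list was -0.40 and -0.17. The falls were led by SLC38A3 and SLC38A5, both glutamine transporters, and by GPT, which moves the amino group of alanine. GPT was low, with means of 8.23 CPM in LG, 2.98 in LGV, 5.59 in HG and 2.73 in HGV. GPT2 of the same list had 721, 495, 579 and 516 CPM in the same order. SLC38A3 had 181 ± 40.9 CPM (SD, n = 3) in LG and 74.4 ± 3.46 in LGV, and SLC38A5 had 111 ± 3.34 in HG and 36.8 ± 4.75 in HGV. In HGV against LGV, 5 rose and 4 fell beside 40.7% of all tested genes, with ASNS, asparagine synthetase, higher by 0.97 on the log2 scale (edgeR FDR 6.18e-05) and the ammonia transporter RHBG by 0.84 (edgeR FDR 4.04e-05).

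For arginine, ornithine and polyamines, 4 of 20 genes fell and none rose in HG against LG, beside 12.7% and 12% of all tested genes. ARG2, the mitochondrial arginase, had the largest of these changes, from 100.2 ± 28.4 CPM (SD, n = 3) in LG to 31.3 ± 2.25 in HG (log2 fold change -1.66, edgeR FDR 2.31e-06). It was also lower in HGV, with 59.2 ± 4.92 CPM (SD, n = 3), than in LGV, with 153 ± 17.3 (log2 fold change -1.39, edgeR FDR 3.98e-07). With VPA the mean of ARG2 was higher in each medium, given here without a test. ARG1, with group means of 0.349 to 1.51 CPM, went the other way, so its fall does not stand for both arginase genes. With VPA, 4 rose and 9 fell in low glucose and 6 rose and 5 fell in high glucose, beside 41.6% and 46.1% of all tested genes, with a median log2 fold change of -0.16 and 0.002. SLC7A7, a transporter of cationic amino acids, rose in each medium, by 2.33 and 2.57 on the log2 scale. Its level was low, with means of 1.22 CPM in LG, 6.13 in LGV, 1.70 in HG and 10.1 in HGV. Other such transporters of the list, at higher levels, did not share this rise. The means of SLC7A1 were 409 CPM in LG, 304 in LGV, 361 in HG and 257 in HGV. Those of SLC7A2 were 388, 304, 295 and 307 CPM in the same order. AGMAT, annotated as agmatinase, fell from 153 ± 36.1 to 35.5 ± 6.90 CPM (SD, n = 3) in low glucose and from 189.6 ± 14.2 to 77.2 ± 10.96 in high glucose. OAT, which links ornithine to glutamate, rose in HGV against HG by 1.30 on the log2 scale (edgeR FDR 2.87e-06).

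The list of bicarbonate supply, CPS1 deacylation, propionyl-CoA and carnitine genes had 1 of 10 higher and 6 lower in LGV against LG, beside 41.6% of all tested genes. In HGV against HG the list had 1 higher and 4 lower, a share near the 46.1% of all tested genes. Its median log2 fold change was -0.42 and -0.32. CA5A, the mitochondrial carbonic anhydrase that supplies bicarbonate to CPS1, had 29.5 ± 1.32 CPM (SD, n = 3) in HG and 17.7 ± 1.499 in HGV. PCCB, a subunit of propionyl-CoA carboxylase, had 55.9 ± 9.05 CPM (SD, n = 3) in LG and 23.5 ± 2.04 in LGV, and fell in each medium. SIRT5, which removes acyl groups from CPS1, was higher in HG than in LG by 0.69 on the log2 scale and lower in HGV than in HG by 0.52. Among genes of amino acid breakdown, 2 of 15 rose and 5 fell in low glucose with VPA, and 4 rose and 5 fell in high glucose, beside 41.6% and 46.1% of all tested genes, with a median log2 fold change of -0.29 and -0.11. CTH, which cleaves cystathionine, and TAT, which starts tyrosine breakdown, fell in each medium. PRODH, which opens proline breakdown, was near the floor without VPA, at 0.15 ± 0.131 CPM (SD, n = 3) in LG and 0.258 ± 0.0892 in HG, and had 1.58 ± 0.83 in LGV and 4.70 ± 0.393 in HGV.

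**Figure D5:**
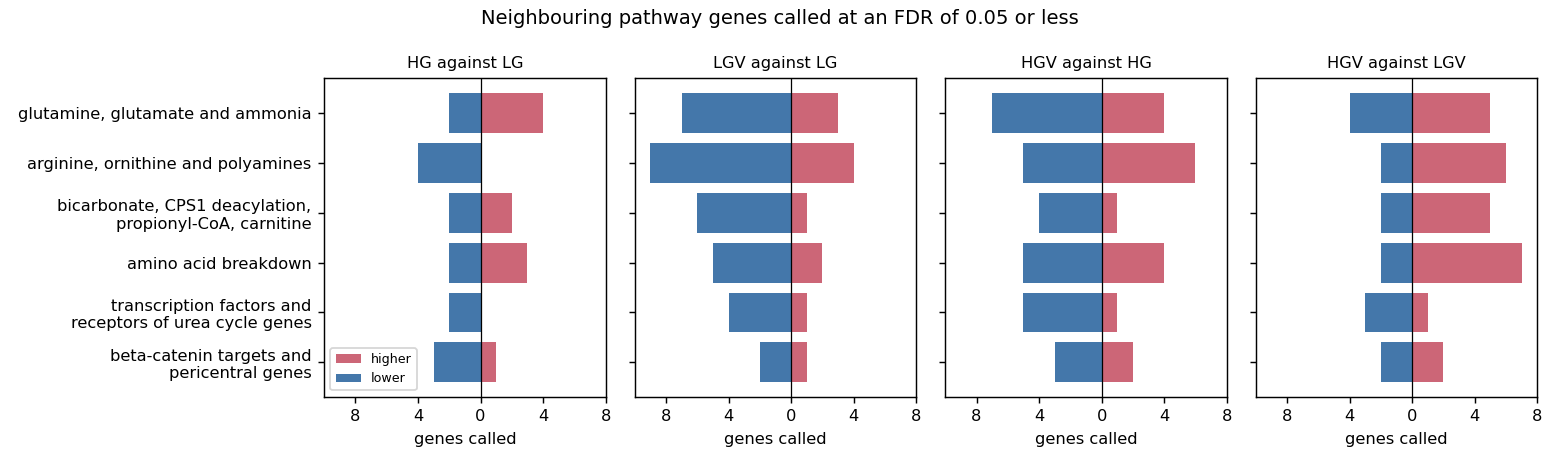
The number of genes called higher (to the right of 0) or lower (to the left) in each of the 6 lists (rows) and each comparison of 3 libraries with 3, at an FDR of 0.05 or less. In LGV against LG, 9 genes of the arginine, ornithine and polyamine list were lower and 4 higher.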

How the data were processed

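RNA of HepG2 cells was sequenced as 50 nt single-end reads in 12 libraries, 3 for each of LG, HG, LGV and HGV. The authors trimmed reads with the FASTX Toolkit, mapped with STAR against GRCh37 and assigned reads above a mapping quality limit to genes with featureCounts. The deposited values are unnormalized counts of 16389 genes, since genes with few reads had been left out. The submitters' processing notes also name bcl2fastq 2.17.1.14. The strand setting of the counting is not given in the sources used here. Total counts per library were 29798442 to 45572694. Pairs of replicates differed by more than sampling noise (chi-square per gene from 10.2 to 64.3 over 12 pairs), so none was counted as a copy.

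The quasi-likelihood F test of edgeR 4.0.16 (R 4.3.3) was run on the counts of each comparison's own libraries with TMM factors, where the mean count of a gene reached 10, with Benjamini-Hochberg FDR over all genes tested. The interaction used the 12 libraries. Standard errors and 95% intervals came from the unshrunk coefficients and the F statistic. The members and lists were chosen with earlier results of these data known. All measured members are named. Genes of the other lists were named from at most the 3 called genes with the largest change per list and comparison. The 5 genes most like the member with the highest CPM per kilobase are named too. Lengths, positions and overlaps came from GENCODE on GRCh37, and promoters from RefSeq on GRCh38.p14, where all 10 listed symbols matched. The authors counted reads on another annotation, from Ensembl, so these lengths and overlaps may differ from those of the features counted. Correlations used log2 of CPM + 0.5. Alternatives were DESeq2 size factors, upper quartile factors, library size, the likelihood ratio test, the Wald test of DESeq2 1.42.0, other filters, the replicate number as a block, an FDR of 0.01, a fit of all 12 libraries, and leaving out each library. Figures used matplotlib 3.10.9. A result of the other lists that the naming rule would include is not reported here.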

Additional observations from a re-analysis of the deposited data

How the results depend on the processing

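Over the 9 genes and 5 comparisons, 760 values were recomputed under alternatives. No called value changed direction, 713 kept their side of the threshold, 23 lost their call and 24 gained it. The number of members called was 1 at an FDR of 0.01 and 5 with upper quartile factors in HGV against LGV, and for the interaction it was 1 with the likelihood ratio test and 1 with DESeq2's Wald test. Over all genes, an FDR of 0.01 gave 1852 calls for HG against LG (3813 at 0.05), 4263 for HGV against LGV (6604) and 1 for the interaction (7). The interaction had 202 calls with the likelihood ratio test, 162 with the Wald test, 13 with the replicate block and 1 with library size only. With a library left out in turn, members called ranged from 2 to 6 in HG against LG, 5 to 7 in LGV against LG, 6 to 8 in HGV against HG, 1 to 3 in HGV against LGV and 0 to 1 for the interaction. All genes called ranged from 1933 to 5338, 4942 to 6986, 6083 to 7793, 4516 to 7228 and 1 to 217, in the same order. Library size in place of TMM factors moved the median log2 fold change of all genes from -0.0057 to 0.157 in LGV against LG, from 0.0249 to 0.146 in HGV against HG and from 0.0107 to 0.106 in HG against LG. The calls went from 3461 higher and 3177 lower to 4500 and 1956, from 4184 and 3272 to 5182 and 2424, and from 1854 and 1959 to 2172 and 1297. In HGV against LGV they went from 3444 and 3160 to 3761 and 2309. Upper quartile factors gave 2458 higher and 1366 lower in HG against LG and 4126 and 2375 in HGV against LGV. Same-numbered libraries did not all deviate together: the correlations across genes of their deviations from the group means ran from -0.255 to 0.005 for HG and LG, -0.229 to 0.382 for LGV and LG, -0.221 to 0.312 for HGV and HG and 0 to 0.253 for HGV and LGV, and at most 2 of 6 libraries in a comparison correlated best with their own number. The numbers were not taken as pairs, since the study's methods name no pairing. With 3 libraries in each group this check cannot exclude pairing. Taking the number as a block gave, over all genes, 3351 calls in HG against LG (3813 without it) and 6971 in LGV against LG (6638). It gave 8229 in HGV against HG (7456) and 7308 in HGV against LGV (6604). With the replicate block, 3 members were called in HG against LG (4 without it), 6 in LGV against LG, 8 in HGV against HG (7 without it) and 3 in HGV against LGV. For ARG1, with 8 to 103 reads a library, depth limits what can be seen.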

Other observations

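Among 9 transcription factors and receptors known to act on genes of the liver's amino acid metabolism, 1 rose and 4 fell in LGV against LG, and 1 rose and 5 fell in HGV against HG, beside 41.6% and 46.1% of all tested genes (19.9% and 20.2% lower). NR1H4, the bile acid receptor, had 91.0 ± 1.71 CPM (SD, n = 3) in LG, 36.2 ± 2.88 in LGV, 66.6 ± 7.14 in HG and 19.2 ± 2.21 in HGV. CEBPA fell in LGV against LG (log2 fold change -1.26, edgeR FDR 0.00164). GCGR, the glucagon receptor, was the gene that rose, from a level near the floor in LG. It had 0.147 ± 0.0351 CPM in LG, 1.42 ± 0.612 in LGV, 0.422 ± 0.144 in HG and 1.53 ± 0.0347 in HGV (SD, n = 3).

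GLUL is a known target of beta-catenin in the liver. Of 11 measured beta-catenin targets and genes of the hepatocytes around the central vein, 1 rose and 2 fell in LGV against LG, 2 rose and 3 fell in HGV against HG, and 1 rose and 3 fell in HG against LG. Of all tested genes, 41.6%, 46.1% and 24.7% were called in these comparisons, so the count with VPA was below the background in low glucose and near it in high glucose. CYP2E1, a cytochrome P450 of the hepatocytes around the central vein, had the largest change of the list in each comparison and rose in all of them. It had 0.218 ± 0.0117 CPM (SD, n = 3) in LG, 0.492 ± 0.136 in HG, 0.683 ± 0.269 in LGV and 1.25 ± 0.0797 in HGV. The level in LG was not far above the floor of 3 reads. The edgeR FDR of CYP2E1 was 0.0394 in HG against LG and 0.0459 in HGV against LGV. AXIN2 and NKD1, feedback inhibitors of the pathway, were lower in HG than in LG, and NKD1 was higher in HGV than in HG (log2 fold change 0.76, edgeR FDR 7.38e-05). SP5 and TBX3 fell in LGV against LG by 0.76 and 0.47 on the log2 scale, where CYP2E1 rose by 1.67, and 8 of the 11 genes did not pass the test.

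The genes whose log2 CPM over the 12 libraries was most like that of GLUL were PGM1 (Pearson's r 0.99), BID (0.989), TXNDC15 (0.986), GTF3C2 (0.986) and UFC1 (0.985). These are descriptions of libraries that share their groups.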
